A study of Mus musculus with 4 samples.

Results

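The genes of MHC class I antigen presentation were examined in the ATAC-seq peaks of SMC and non-SMC cell lines. The members are *H2-K1*, *H2-D1*, *B2m*, *Tap1*, *Tap2*, *Tapbp*, *Nlrc5*, *Psmb8*, *Psmb9* and *Ciita*, and they were chosen by name. They are 10 of the 21938 protein-coding genes of the annotation, GENCODE M21 on mm10. All peaks in the gene bodies with 10 kb on each side were taken. These windows join into 7 stretches of 343.505 kb in all and hold 110 of the 357570 regions in which any library had a peak.

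In ATAC-seq a transposase cuts and tags DNA wherever chromatin is accessible, so a peak is a stretch with more such cuts than its surroundings. It was carried out on 4 libraries from 4 untreated mouse lung tumor cell lines, 1 library per line. All lines came from tumors of the *RP* model, in which Cre from an adenovirus given into the airways removes floxed *Rb1* and *Trp53*, and all have a mixed background of C57Bl/6, Balb-c and S129. SMC lines 1 and 2 were sorted as NCAM high and CD44 low or negative cells, the metastasizing cells of this small-cell lung cancer model, and non-SMC lines 1 and 2 as NCAM low and CD44 high cells. The title of the series calls the lines paired and the labels number them, so SMC line 1 and non-SMC line 1 are pair 1 here and the remaining lines pair 2, but no source used here says that lines of one number came from one mouse. With 2 lines per type, the smallest two-sided p that an exact permutation test can give is 0.333, so no test was made between the types, and the sources used here do not say whether lines of a type came from separate tumors.

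MHC class I molecules show peptides from inside the cell to CD8 T cells. *H2-K1* and *H2-D1* encode the heavy chains, and *B2m* encodes the light chain that every class I molecule needs to reach the surface. *Psmb8* and *Psmb9* encode catalytic subunits of the immunoproteasome, *Tap1* and *Tap2* form the transporter that brings peptides into the endoplasmic reticulum, and tapasin, from *Tapbp*, holds the empty heavy chain at that transporter. NLRC5 is the class I transactivator and CIITA the class II transactivator. Both act at promoters through a shared platform of DNA-binding factors, and interferon and NF-kB add to the transcription of class I genes. Low class I at the surface is a known trait of small-cell lung cancer cells.

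Promoters of members with different patterns are shown first, from the RefSeq promoter table on GRCm38.p6, which held 7 of the 10 members and not *Tap2*, *Nlrc5* or *Ciita*. Each runs from 250 bases before to 50 after the RefSeq start, 5′ to 3′ on the strand of the gene. *H2-K1* lies at chr17:34000298-34000597 on the minus strand, *H2-D1* at chr17:35262844-35263143, *B2m* at chr2:122147437-122147736, *Tap1* at chr17:34187306-34187605 and *Psmb8* at chr17:34197945-34198244, these 4 on the plus strand. The RefSeq start of *Psmb8* lies 474 bases past its annotated 5′ end, so the stretch shown for *Psmb8* begins after the promoter peak described further on. The *Tap1* window also covers the RefSeq start of *Psmb9* on the other strand. Capitals mark matches, on either strand, to the NF-kB motif, the ISRE (GAAA, any 2 bases, GAAA), the GAS (TTCNNNGAA), the AP-1 motif (TGANTCA), the CRE half-site (TGACG) or the CCAAT box (CCAAT). The GC box (GGGCGG) was also counted but is left in lower case.
H2-K1: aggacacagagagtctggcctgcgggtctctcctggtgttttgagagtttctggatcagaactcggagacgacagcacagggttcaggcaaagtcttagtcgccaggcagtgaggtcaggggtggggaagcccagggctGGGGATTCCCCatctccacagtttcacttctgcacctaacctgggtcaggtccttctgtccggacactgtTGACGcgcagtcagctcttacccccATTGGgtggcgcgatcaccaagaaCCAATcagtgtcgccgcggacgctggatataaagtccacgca
H2-D1: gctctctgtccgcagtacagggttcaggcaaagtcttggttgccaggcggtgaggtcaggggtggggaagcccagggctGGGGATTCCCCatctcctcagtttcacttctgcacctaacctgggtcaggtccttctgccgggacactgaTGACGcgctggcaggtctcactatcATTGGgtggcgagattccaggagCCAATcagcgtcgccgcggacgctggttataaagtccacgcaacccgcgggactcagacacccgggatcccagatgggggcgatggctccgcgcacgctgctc
B2m: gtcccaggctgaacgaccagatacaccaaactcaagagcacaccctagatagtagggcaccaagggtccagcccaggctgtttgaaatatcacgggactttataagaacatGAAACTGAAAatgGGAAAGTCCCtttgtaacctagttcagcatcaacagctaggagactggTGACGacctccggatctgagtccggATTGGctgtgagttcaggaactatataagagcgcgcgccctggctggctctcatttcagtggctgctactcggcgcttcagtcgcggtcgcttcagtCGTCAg
Tap1: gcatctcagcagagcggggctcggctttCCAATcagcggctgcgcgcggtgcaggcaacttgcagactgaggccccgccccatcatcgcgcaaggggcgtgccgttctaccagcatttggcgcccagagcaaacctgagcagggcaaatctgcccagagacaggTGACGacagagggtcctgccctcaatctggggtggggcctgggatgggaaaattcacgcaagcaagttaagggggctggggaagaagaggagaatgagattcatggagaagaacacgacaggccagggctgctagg
Psmb8: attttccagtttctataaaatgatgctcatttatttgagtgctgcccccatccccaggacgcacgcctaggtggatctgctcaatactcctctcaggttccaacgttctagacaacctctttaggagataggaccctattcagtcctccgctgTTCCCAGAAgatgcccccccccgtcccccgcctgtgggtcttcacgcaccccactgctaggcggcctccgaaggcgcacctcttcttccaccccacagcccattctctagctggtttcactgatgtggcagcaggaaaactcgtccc

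The heavy chain promoters are near copies of each other. Over 239 aligned bases, 211 were identical between *H2-K1* and *H2-D1* (88.3%), with a longest identical run of 47 bases. Both held the same pair of overlapping NF-kB matches, a CRE half-site and 2 CCAAT boxes. In *H2-K1* the NF-kB matches span bases -111 to -101 from the RefSeq start and the CRE half-site bases -41 to -37. In *H2-D1* they span -171 to -161 and -101 to -97. The RefSeq starts lie 0 and 364 bases past the annotated 5′ ends of *H2-K1* and *H2-D1*, so these positions depend on where each start is placed.

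The libraries differed in depth and in what their lists could hold. The depth implied by the recovered background was 8.36 M reads in SMC line 1 and 29.4 M in SMC line 2, against 23.5 M and 10.4 M in the non-SMC lines 1 and 2, and the lists held 91057, 153954, 115837 and 128710 peaks on the chromosomes kept. The share of peaks whose -log10 q reached 5, a stricter set used beside the full lists, was 14.3%, 17.1%, 38.0% and 19.5%. At the genome background, the smallest listed pileup was 3 reads in SMC line 1 and non-SMC line 2 and 5 reads in the others, which is 6.58, 4.70, 3.25 and 3.37 times that background in SMC line 1, non-SMC line 2, SMC line 2 and non-SMC line 1. At the stricter limit 1 of 6 SMC markers, the neuroendocrine gene *Chga*, had promoter peaks in both SMC lines alone, against 1.63% of all genes. Of 6 non-SMC markers 4 (*Cd44*, *Wwtr1*, *Yap1* and *Vim*) had them in both non-SMC lines alone, against 5.3%, and *Cav1* and *Axl* did not. In the full lists these numbers were 2 of 6, with *Chga* (3.08% of all genes), and 0 of 6 (2.45%). There, SMC lines 1 and 2 had promoter peaks at 5 and 6 SMC markers and non-SMC lines 1 and 2 at 4 and 3. For the non-SMC markers these were 2 and 6 against 6 and 6. Over all genes the shares with a promoter peak were 62.2% and 69.3% in SMC lines 1 and 2 and 64.6% and 64.9% in non-SMC lines 1 and 2. The promoter of *Ncam1* had peaks in all 4 libraries.

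The promoter of *H2-K1* had a peak in each of the non-SMC lines but in no SMC line, whereas that of *H2-D1* had one in all 4 libraries. A promoter is the 6 kb centred on the 5′ end of the gene. Its highest peak is described by its fold enrichment, the ratio of summit reads to local background with 1 added to both. The added 1 lowers this ratio most where reads are few, so fold enrichment depends on the depth of the library. Also given are the percentile of that ratio in the list of its own library and the reads at the summit over the genome background of the library. For *H2-K1*, non-SMC line 1 had a peak of 5.98-fold enrichment, at the percentile 73.2, with a -log10 q of 8.16 and 16 reads. Non-SMC line 2 had 6.14-fold, at the percentile 84.8, with a -log10 q of 6.05 and 10 reads. Their summits lay 30 and 27 bases upstream of the start, within the promoter printed above, and the peaks covered the start in both lines. The SMC lines listed nothing in the 6 kb. At the ratios of the non-SMC lines, 10.8 and 15.7 times the genome background, SMC line 1 would have 4.91 and 7.14 reads and SMC line 2 16.6 and 24.1 reads, all above the smallest pileups listed there.

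**Figure D1:**
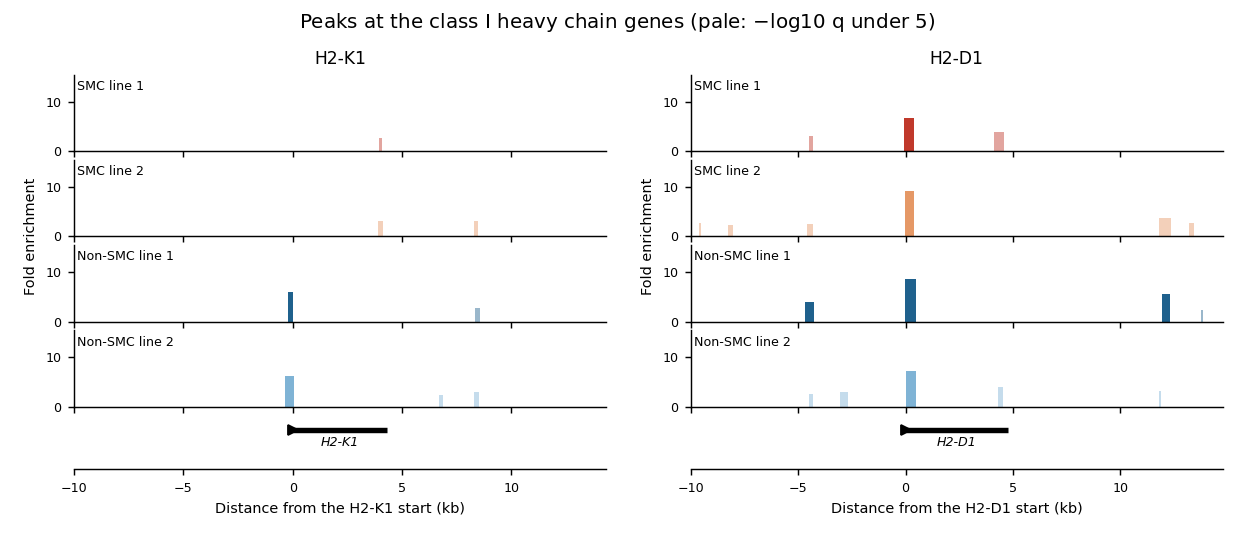
Peaks in the windows of *H2-K1* (left) and *H2-D1* (right), 1 row per library, with the fold enrichment as bar height against the distance from the gene's start in kb. Pale bars have a -log10 q under 5, and arrowheads mark the start of each gene. At the start of *H2-K1* bars of 5.98 and 6.14 stand in the non-SMC rows alone, and at the start of *H2-D1* a bar stands in all 4 rows.

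For *H2-D1*, the fold enrichment was 6.62 and 9.20 in SMC lines 1 and 2 and 8.59 and 7.20 in non-SMC lines 1 and 2. The reads at the summit were 28.5, 31.9, 32.3 and 29.7 times the genome background in the same order. The types overlapped in both measures, and the log2 ratio of non-SMC to SMC signal was 0.04, with 0.18 in pair 1 and -0.10 in pair 2. The percentile was 90.0, 96.6, 85.8 and 88.8, lower in both non-SMC lines than in either SMC line. Summits lay 237 to 279 bases past the annotated 5′ end, and the RefSeq start lies 364 bases past that end. An upstream region of *H2-D1*, with its highest summit at -4432 bases from the start, also had a peak in all 4 libraries, of 3.10-, 2.54-, 4.02- and 2.57-fold enrichment.

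Of the 10 members, *H2-K1* alone (1 of 10) had a non-SMC-only promoter, meaning one with peaks in the 2 non-SMC lines but in no SMC line, against 2.45% of all protein-coding genes. It kept this pattern at the stricter limit, where *Nlrc5* joined it (2 of 10 members, against 5.3% of all genes). It also kept it with lists cut to equal length by p, after thinning to a common depth and within 500 bases of the RefSeq start. It lost it when the start of every annotated transcript was used, because transcripts that start inside the gene reach a peak pair in an exon. That exonic region lay 4045 bases past the start, and both SMC lines alone had a peak there, of 2.60- and 3.15-fold enrichment with a -log10 q of 0.47 and 1.28. Class I genes share sequence, and the region of the promoter peak, 380 bases, aligned in part to 7 other places on chromosome 17 at 80.3% to 95.2% identity, the *H2-D1*, *H2-Q6* and *H2-Q7* promoters among them. None of its 331 words of 50 bases occurred again on that chromosome (0 of 331). The strains of the mixed background differ at H2 genes, all reads were mapped to 1 reference, and the part of this in the *H2-K1* difference was not tested.

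**Figure D2:**
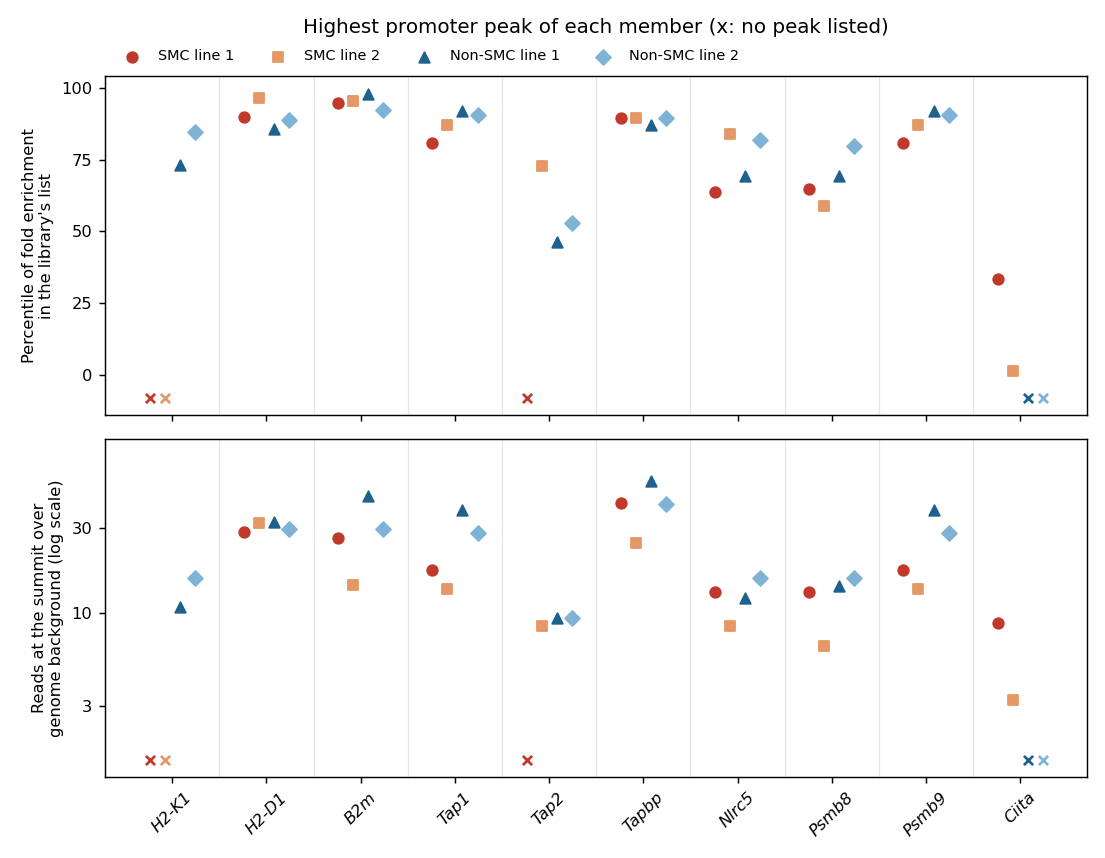
Highest promoter peak of each member in each library, as the percentile of its fold enrichment in the library's own list (top) and as the reads at the summit over the genome background on a log axis (bottom). Crosses mark libraries with no promoter peak, which are both SMC lines for *H2-K1*, SMC line 1 for *Tap2* and both non-SMC lines for *Ciita*.

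Of the 10 members, 7 had a promoter peak in all 4 libraries (*H2-D1*, *B2m*, *Tap1*, *Tapbp*, *Nlrc5*, *Psmb8* and *Psmb9*), against 48.7% of all protein-coding genes. At the stricter limit 3 did, *H2-D1*, *B2m* and *Tapbp*, against 21.4%. By library, 8 members had a promoter peak in SMC line 1 and 9 in each of the other libraries. Over all genes these shares were 62.2% and 69.3% in SMC lines 1 and 2 and 64.6% and 64.9% in non-SMC lines 1 and 2. At the stricter limit the members numbered 3 and 5 in SMC lines 1 and 2 and 8 and 7 in non-SMC lines 1 and 2. None of the members had a promoter specific to the SMC lines at that limit, against 1.63% of all genes. Over all genes the stricter shares were 27.7% and 41.0% in SMC lines 1 and 2 and 49.5% and 36.4% in non-SMC lines 1 and 2. A peak over the start itself was found in all 4 libraries for 6 members (*B2m*, *Tap1*, *Tapbp*, *Nlrc5*, *Psmb8* and *Psmb9*), against 26.2% of all genes, in the non-SMC lines alone for *H2-K1* (2.34% of all genes) and in the SMC lines alone for none (2.29%).

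*B2m*, the light chain, had the promoter peak with the highest fold enrichment of any member in non-SMC line 1. Its fold enrichment was 8.22 and 8.38 in SMC lines 1 and 2 and 14.7 and 8.40 in non-SMC lines 1 and 2. The reads at the summit were 26.3, 14.3, 45.1 and 29.7 times the genome background, so both non-SMC lines were above both SMC lines by this measure. The log2 ratio of signal was 0.92, with 0.78 and 1.06 in pairs 1 and 2. The percentiles of 94.8, 95.5, 97.9 and 92.5 overlapped. The summits lay 47 to 82 bases before the start, and the *B2m* promoter above holds a CRE half-site at -78 to -74 and a CCAAT box at -53 to -49. Of the 7 member promoters searched, it was the 1 with a match to the ISRE string, at -139 to -130, next to an NF-kB match at -126 to -117. Variants of the ISRE that differ from this string were not searched for in any promoter.

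*Tap1* and *Psmb9*, a transporter subunit and an immunoproteasome subunit, start next to each other on opposite strands and share 1 peak, so their values are the same. The fold enrichment of that peak was 5.05, 5.45, 10.8 and 7.77 in SMC lines 1 and 2, then non-SMC lines 1 and 2. The reads at its summit were 17.5, 13.7, 37.7 and 28.2 times the genome background. Both non-SMC lines were above both SMC lines in both measures and in the percentile (81.0 and 87.1 against 91.9 and 90.7). The log2 ratio of signal was 1.07, with 1.10 in pair 1 and 1.05 in pair 2. SMC line 1 missed the stricter limit at this peak, with a -log10 q of 3.68.

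*Psmb8* had a weaker promoter peak with the same order. Its fold enrichment was 3.93, 3.15, 5.33 and 5.40. The reads at its summit were 13.2, 6.50, 14.1 and 15.7 times the genome background. As defined, neither measure overlapped between the types. For fold enrichment this rests on the added 1. SMC line 1 had 6 reads over a local background of 0.783 and non-SMC line 1 had 21 over 3.13, so without it SMC line 1 is the higher. In reads over the genome background, SMC line 1 and non-SMC line 1 differed by little (0.10 as a log2 ratio), and the lines of pair 2 by 1.27. *Tap2* had no peak over its start in any library. Its 6 kb held 4 weak peaks in SMC line 2, 3 in non-SMC line 1, 1 in non-SMC line 2 and none in SMC line 1, none past the stricter limit.

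*Tapbp* had peaks in all 4 libraries at its annotated 5′ end, of 6.49-, 6.02-, 8.99- and 7.35-fold enrichment. The start of *Zbtb22* lies within a few bases of that position, so this peak belongs to either gene. RefSeq starts *Tapbp* 3579 bases downstream, and the region there was also open in all 4 libraries, with 3.05-, 2.53-, 3.33- and 3.59-fold enrichment. A region 4552 bases past the 5′ end had 3.39-, 2.57-, 5.11- and 3.75-fold enrichment. At both of these non-SMC line 1 alone passed the stricter limit.

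Among the 7 members with a promoter peak in every library, the summit signal was higher in both non-SMC lines than in either SMC line for 4 (*B2m*, *Tap1*, *Psmb9* and *Psmb8*), of which *Tap1* and *Psmb9* are 1 peak, against 32.5% of the 10693 genes with such a promoter. No member had the opposite order, against 8.83%. By percentile the order was higher in both non-SMC lines for 3, *Tap1*, *Psmb9* and *Psmb8* (13.1% of all such genes), and higher in both SMC lines for *H2-D1* (32.4%). The median log2 ratio of signal was 0.69 over the 7 members and 0.27 over all such genes, and within pairs 0.41 and 1.05 against -0.06 and 0.60. In this median and that of the percentile, the peak that *Tap1* and *Psmb9* share counts once for each gene, so the 7 values are not separate. The median difference in percentile, non-SMC minus SMC, was 1.83 against -1.75, and within pairs 1 and 2 it was 4.46 and -0.06 for the members against -1.85 and -1.65.

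The class I transactivator gene *Nlrc5* had a peak at its promoter in every library, and further regions along its length. At its promoter the fold enrichment was 3.86, 4.77, 5.37 and 5.64 in SMC lines 1 and 2, then non-SMC lines 1 and 2. The -log10 q was 1.83, 4.87, 7.83 and 5.30, so the stricter limit was passed in both non-SMC lines alone, with SMC line 2 just under it. The reads at the summit overlapped between the types, at 13.2, 8.45, 12.1 and 15.7 times the genome background, and within pairs 1 and 2 the log2 ratio was -0.12 and 0.89. An intronic region 57842 bases past the start was open in all 4 libraries and highest in SMC line 1, with 6.50-, 4.30-, 4.32- and 4.16-fold enrichment.

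*Nlrc5* has the longest window of the members, 112.917 kb of the 343.505 kb in all. It held 3 of the 6 non-SMC-only regions, beside 2 open in all libraries, 1 SMC-only and 32 with none of these patterns. Over all regions 7.33% were non-SMC-only. Of the 3 regions in *Nlrc5*, 2 were intronic, at 24463 and 82577 bases from the start. Their fold enrichment was 3.62 and 5.96 at the first and 3.30 and 3.40 at the other. At the ratio of non-SMC line 1, either would have 2.46 reads in SMC line 1, under the 3 reads of its smallest listed pileup, and at the ratio of non-SMC line 2 they would have 6.43 and 3.57 reads, above it. An SMC-only region lay 69988 bases from the start, with 4.0- and 3.34-fold enrichment.

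The class II transactivator gene *Ciita* was the 1 member with an SMC-only promoter, against 3.08% of all protein-coding genes. SMC line 1 had a 3.03-fold peak of 4 reads, 468 bases past the start, and a 2.61-fold peak of 3 reads at -2116 bases from it, with a -log10 q of 0.75 and 0.47. SMC line 2 had a 2.17-fold peak of 5 reads at -2408 bases, with a -log10 q of 0.21. The peaks of the SMC lines did not overlap, and none covered the start. The pattern was gone at the stricter limit, with a promoter of 2 kb or 1 kb, with equal numbers of top peaks and after thinning. Inside the gene, an exonic region 30890 bases past the start had a peak in all 4 libraries, and the SMC lines stood far apart there. SMC line 1 had 12.1-fold enrichment there, at the percentile 99.2 of its list, with a -log10 q of 21.9. SMC line 2 had 2.81-fold, non-SMC line 1 4.32-fold and non-SMC line 2 4.06-fold enrichment. This region also lies inside the annotated body of *Dexi*.

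Some regions are printed for their contrast between libraries, as the 201 bases centred on the highest summit, GRCm38.p6, plus strand. They are the non-SMC-only region downstream of *B2m* at chr2:122161649-122161849 and the exonic region of *Ciita* at chr16:10510849-10511049. Capitals mark matches to the motifs above, which are present in *Ciita* alone, as 1 AP-1 match 46 to 52 bases past the summit.
B2m +14063: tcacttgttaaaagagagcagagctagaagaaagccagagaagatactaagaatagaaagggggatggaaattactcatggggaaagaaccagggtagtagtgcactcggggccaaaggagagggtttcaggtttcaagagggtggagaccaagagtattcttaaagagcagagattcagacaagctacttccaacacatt
Ciita +30890: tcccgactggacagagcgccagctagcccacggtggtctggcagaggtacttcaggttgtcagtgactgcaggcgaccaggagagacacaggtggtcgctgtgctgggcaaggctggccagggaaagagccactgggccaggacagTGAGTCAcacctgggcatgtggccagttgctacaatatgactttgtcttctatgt

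**Figure D3:**
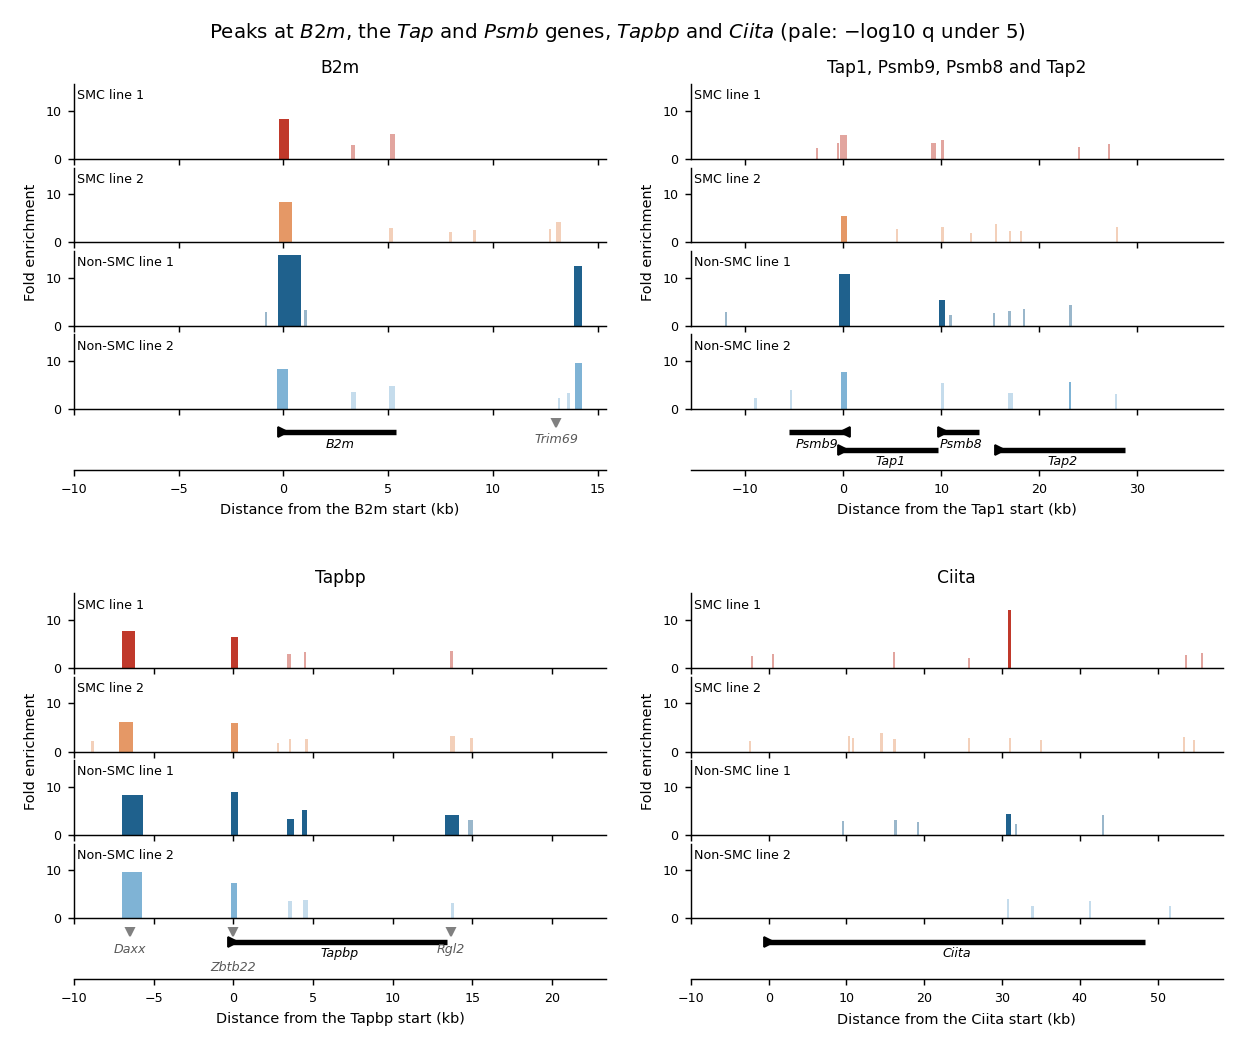
Peaks at *B2m*, at the cluster of *Psmb9*, *Tap1*, *Psmb8* and *Tap2*, at *Tapbp* and at *Ciita*, 1 row per library, with fold enrichment as bar height against distance in kb from the start named under each panel. Pale bars have a -log10 q under 5, black bars are genes with an arrowhead at the start, and gray triangles mark the starts of *Trim69*, *Daxx*, *Zbtb22* and *Rgl2*. The tall bars near 14 kb at *B2m* (12.5 and 9.49) stand in the non-SMC rows alone, the bars at the start of *Tapbp* in all 4 rows, and the tall bar in *Ciita* (12.1) in SMC line 1.

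The region downstream of *B2m* had the highest enrichment of the non-SMC-only regions, with 12.5-fold for non-SMC line 1 and 9.49-fold for non-SMC line 2, with a -log10 q of 39.5 and 14.3. It lay 14063 bases past the *B2m* start, outside the gene, and 1049 bases past the start of *Trim69*, so its assignment to *B2m* rests on the 10 kb flank alone. At the ratios of the non-SMC lines, SMC line 1 would have 15.7 and 13.6 reads there and SMC line 2 52.8 and 45.7, and neither listed a peak. Another non-SMC-only region lay in an intron of *Tap2*, 7205 bases past its start, with 4.37- and 5.71-fold enrichment and a -log10 q of 4.86 and 5.67.

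Over the 110 regions, 6 were non-SMC-only (5.45%), against 7.33% of all regions and 7.14% of those in the windows of protein-coding genes. SMC-only regions numbered 3 (2.73%), against 4.37% and 4.3%, and these lay in *H2-K1*, *Nlrc5* and *Ciita*. A peak in all 4 libraries was found in 13 regions (11.8%), against 3.81% and 5.16%, with 5 of them in the *Tapbp* window, which also holds the starts of *Daxx*, *Zbtb22* and *Rgl2*. Most regions, 71 (64.5%), had a peak in 1 library alone, against 76.9% of all regions. Neither share of type-specific regions at the members exceeded the share over all regions. At the stricter limit 4 regions were non-SMC-only, among them the *H2-K1* promoter, the *Nlrc5* promoter and the region 14063 bases past the *B2m* start, none was SMC-only, and 4 were open in all 4 libraries. Over all stricter regions the shares were 20.1%, 6.12% and 7.26%. The number of stricter regions at the members is not given here, and these counts are not shares of the 110 regions.

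Counted over the joined windows, SMC lines 1 and 2 had 35 and 53 peaks and non-SMC lines 1 and 2 had 47 each, a mean of 44 ± 12.7 (SD, n = 2) against 47 ± 0. The difference was smaller than the spread between the SMC lines and had opposite signs in the pairs, with 12 more peaks in the non-SMC line of pair 1 and 6 fewer in that of pair 2. At the stricter limit the counts were 6 and 6 against 18 and 11, a mean of 6 ± 0 against 14.5 ± 4.95. Per megabase these are 17.5 and 17.5 against 52.4 and 32.0, whereas the windows of all protein-coding genes had 7.72 and 14.6 against 24.3 and 14.1. As a share of each stricter list, the members' windows held 0.0459% and 0.0228% in SMC lines 1 and 2 and 0.0409% and 0.0438% in non-SMC lines 1 and 2, so the types overlapped once the length of the list was taken into account.

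By gene, *Nlrc5* was the 1 window with more peaks in both non-SMC lines (17 and 17) than in either SMC line (9 and 13), against 12.7% of all protein-coding genes. *Ciita* was the 1 window with more in both SMC lines (7 and 10) than in either non-SMC line (6 and 4), against 12.3%. At the stricter limit 5 of 10 windows, those of *H2-K1*, *B2m*, *Tap2*, *Nlrc5* and *Psmb8*, had more peaks in both non-SMC lines, against 20% of all genes, and none had more in both SMC lines, against 3.15%. The *Tap2* and *Psmb8* windows overlap and share peaks. The stricter counts behind this were small, 0 and 0 against 1 and 1 for *H2-K1* and for *Tap2*, 1 and 1 against 2 and 2 for *B2m*, 0 and 1 against 2 and 2 for *Psmb8* and 1 and 1 against 4 and 3 for *Nlrc5*.

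**Figure D4:**
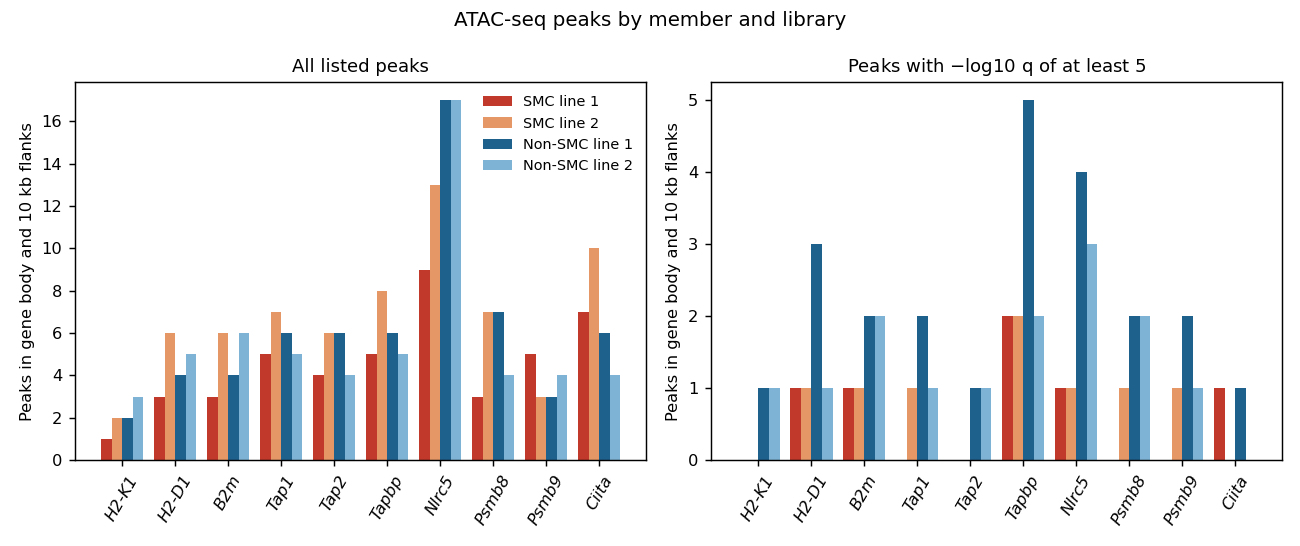
Number of peaks in the gene body and 10 kb flanks of each member, 1 bar per library, for all listed peaks (left) and for peaks whose -log10 q reached 5 (right). In the left panel the non-SMC bars stand above both SMC bars for *Nlrc5* (17 and 17 against 9 and 13), and in the right panel for *H2-K1*, *B2m*, *Tap2*, *Nlrc5* and *Psmb8*.

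Motif matches were counted in the RefSeq promoters and around summits. Of the 7 member promoters, the NF-kB motif was matched in 3 (*H2-K1*, *H2-D1* and *B2m*), against 8.46% of 32851 promoters, and the CRE half-site in 5 (*H2-K1*, *H2-D1*, *B2m*, *Tap1* and *Psmb9*), against 20.8%. The CCAAT box was matched in 6, all but *Psmb8*, against 37.4%. The GC box was matched in 3 (*Tap1*, *Tapbp* and *Psmb9*), against 35.7%, and the ISRE in *B2m* alone, against 3.44%. The GAS was matched in *Psmb8* alone, against 8.30%, and the AP-1 motif in none of the 7, against 7.81%. *Tap1* and *Psmb9* are counted as separate promoters although their windows overlap.

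Within 100 bases of the summit, 1 of the 6 non-SMC-only member regions held an AP-1 match, the intronic *Nlrc5* region 82577 bases past the start, against 55.5% of all 26224 non-SMC-only regions and 14.8% of all regions. The NF-kB motif was matched in 2 of the 6, the *H2-K1* promoter and the *Nlrc5* region 24463 bases past the start, against 4.57% of all non-SMC-only regions. Both matches lay more than 50 bases from the summit, and within 50 bases 0 of the 6 held one, against 2.25%. Of all 110 member regions, 8 held an NF-kB match (7.27% against 3.94% of all regions), 6 an ISRE (5.45% against 1.69%) and 10 an AP-1 match (9.09% against 14.8%). A match is a string of letters and does not show binding, and a missing match does not show that a variant of the element is absent.

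Other genes of the pathway were counted by the same promoter call. Of 15 other classical and non-classical class I chain genes, 4 (*H2-Q4*, *H2-M3*, *Cd1d1* and *Mr1*) had a promoter peak in all 4 libraries, against 48.7% of all genes. The non-classical chain genes *H2-T22* and *H2-T23* (2 of 15) had one in both non-SMC lines alone, against 2.45%, and *H2-Q6* (1 of 15) in both SMC lines alone, against 3.08%. At *H2-T22* the fold enrichment was 8.12 and 3.97 in non-SMC lines 1 and 2, with summits at -14 and -39 bases from the start. At *H2-T23* it was 3.22 and 3.66, with a -log10 q of 1.60 and 1.74. The summits of these highest *H2-T23* peaks lay apart, at 248 and -1942 bases from the start. At *H2-Q6* it was 4.70 in SMC line 1 and 3.15 in SMC line 2, and these peaks lay 70 bases before and 882 bases past the start. In windows, 6 of these 15 genes had more peaks in both non-SMC lines and none in both SMC lines, where the shares over all genes were the 12.7% and 12.3% above. Windows of neighboring genes on this list, such as *H2-T22* and *H2-T23*, overlap and share peaks, so the 15 genes are not separate counts.

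All 13 genes of peptide making and loading on the list, from *Psmb10* and *Psme1* to *Calr*, *Canx* and *Pdia3*, had a promoter peak in every library, against 48.7% of all genes. Of 29 regulators, including the interferon receptors, *Jak1*, *Rfx5* and the NF-Y and NF-kB genes, 25 had one in every library (48.7% of all genes) and *Nfyc* in both non-SMC lines alone, with weak peaks of 2.41- and 2.25-fold enrichment. At the stricter limit 3 of the 29 regulators, the NF-kB genes *Nfkb2*, *Rela* and *Rel*, had a promoter peak in both non-SMC lines alone, against 5.3% of all genes. In the full lists all 3 had a promoter peak in every library. At *Rel*, SMC line 2 was just under the limit, with a -log10 q of 4.85. The other genes of that family, *Nfkb1* and *Relb*, did not have this pattern. On the other pathway lists, 1 of the 15 class I chain genes had it and no gene of peptide making and loading or of class II. At that limit no gene of these lists or of the regulators had a promoter peak in both SMC lines alone, against 1.63% of all genes. Of 11 class II genes, 1 (*H2-DMa*) had a promoter peak in every library, against 48.7% of all genes, and none was specific to a type, against 2.45% for non-SMC and 3.08% for SMC. In windows, 4 of the 29 regulators had more peaks in both non-SMC lines and 5 in both SMC lines. For peptide making and loading these were 1 and 1 of 13, and for class II 0 and 0 of 11. Over all genes the shares were 12.7% and 12.3%. Of 9 genes that mark immune and endothelial cells, which carry much MHC class I, 1 and 4 had a promoter peak in SMC lines 1 and 2 and 3 and 4 in non-SMC lines 1 and 2, where the shares over all genes were 62.2%, 69.3%, 64.6% and 64.9%. None had one in every library, and at the stricter limit none was specific to a type. In the full lists 1 of the 9, the endothelial gene *Pecam1*, had one in both non-SMC lines alone, against 2.45% of all genes, with 6.65- and 3.05-fold enrichment. *Cdh5*, also an endothelial gene, had promoter peaks in both SMC lines and in non-SMC line 2, of 4.49-, 2.81- and 3.72-fold enrichment, and none in non-SMC line 1. The part of other cells in these peaks was not tested.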

How the data were processed

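Per the study's methods, Bowtie2 2.3.4 aligned the paired reads to mm10, duplicates were removed, and the authors called peaks in each library with MACS2 2.1.1, with no settings given. Each deposited peak has a fold enrichment, its -log10 p-value and -log10 q-value, and a score that was not used. The fold enrichment is the ratio of summit pileup to local background, with 1 added to both. Libraries were grouped by the labels. Summit reads and backgrounds were recovered from the ratio and the Poisson p-value (all but 3 to 5 peaks per library), which was tested on simulated data, and the implied depth follows from the background, the genome size that MACS2 sets for mouse and the shortest listed peak as fragment length. The -log10 p of a peak depends on the depth of its own library.

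Chromosomes 1 to 19, X and Y were kept. Regions are the 4 lists merged where they share at least 1 base. No test was made between the types, and each share stands beside the share over all genes, promoters or regions. The alternatives tried were a limit on -log10 q (5 or more), the top 91057 peaks of each list, thinning to 50% of the shallowest depth with p up to 0.01, other windows and overlaps, and each library left out. Motifs were searched on both strands within 100 bases of the highest summit. *H2-K2*, *H2-T10*, *Lmp10* and *H2-Ea* on the lists had no match by name in the annotation used. The members, lists and alternatives were chosen with earlier results of these data known. The genes named are the members and, from the lists, those with type-specific promoters. Genes at the stricter limit, and list examples, were chosen after their values were seen. Reads and expression data of the study were not analysed here, and some genes and a region are not reported here. The tools were BLAST+ 2.17.0, bedtools 2.31.1, biopython 1.88 and matplotlib 3.10.9, with pandas 2.3.3, scipy 1.17.1 and numpy 2.4.6 under Python 3.11.15.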

Additional observations from a re-analysis of the deposited data

Results flagged for a closer look

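The peak counts of several windows differed between the types in one direction in pair 1 and in the other in pair 2, and these differences between pairs were not tested. The values are peaks in the non-SMC line minus peaks in the SMC line of the same number. Over the joined windows of all members the difference was 12 in pair 1 and -6 in pair 2. It was 1 and -1 for *H2-D1*, 1 and -2 for *Tap1*, 2 and -2 for *Tap2*, 1 and -3 for *Tapbp* and 4 and -3 for *Psmb8*. For *Psmb9* it was -2 and 1. The windows of *Tap1*, *Tap2*, *Psmb8* and *Psmb9* overlap and share peaks. The SMC line of pair 1 has the shortest list (91057 peaks) and that of pair 2 the longest (153954 peaks), and their part in these differences was not tested.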

How the results depend on the processing

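No paired analysis was possible because the results come from no test, so differences within pairs are given as values alone. At a -log10 q of at least 5, members with a promoter peak in both SMC lines numbered 3 in place of 8, and those with the start covered in both SMC lines 3 in place of 7. Non-SMC-only promoters numbered 2 and SMC-only promoters 0 in place of 1 each, windows with more peaks in both non-SMC lines 5 and in both SMC lines 0 in place of 1 each, SMC-only regions 0 in place of 3 and regions open in all libraries 4 in place of 13. With equal numbers of top peaks these windows numbered 2 and 0 and SMC-only promoters 0. After thinning, 5 members had a promoter peak in both SMC lines, non-SMC-only promoters (*H2-K1* and *Tap2*) numbered 2, SMC-only promoters 0, windows with more peaks in both SMC lines 0, SMC-only regions 1 and regions open in all libraries 4. Non-SMC-only promoters and SMC-only promoters both numbered 0 with the start of every transcript, and SMC-only promoters also 0 with promoters of 2 kb or 1 kb and within 500 bases of the RefSeq starts of 7 members, an alternative chosen after seeing the data.

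With flanks of 50 kb the non-SMC mean exceeded the SMC mean by 13.5 peaks in place of 3, non-SMC-only regions numbered 28, SMC-only regions 5, regions open in all libraries 28 and windows with more peaks in both SMC lines 0. With a reciprocal overlap of 50%, 6 regions were open in all libraries. Leaving out each library in turn, the mean difference in peaks ran from -6 (without SMC line 1, where it changed sign) to 12 (without SMC line 2), non-SMC-only promoters from 1 to 2, windows with more peaks in every non-SMC line from 1 to 5 and in every SMC line from 1 to 4, non-SMC-only regions from 6 to 26 and SMC-only regions from 4 to 27. The highest region counts came without non-SMC line 2 (26) and without SMC line 1 (27), where a single line stood for its type, which by construction admits more regions. *H2-K1* was among the non-SMC-only promoters at the stricter limit, with equal numbers of top peaks and after thinning.

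Within 50 and 250 bases of the summit in place of 100, member regions with a match numbered 2 and 15 for NF-kB (8 at 100 bases), 2 and 8 for the GAS (5), 7 and 22 for the CRE half-site (12), 5 and 21 for the GC box (8), 0 within 50 bases for the ISRE (6), 6 within 50 bases for AP-1 (10) and 56 within 250 bases for the CCAAT box (29). Of 135 values under alternatives, 85 differed from the reported value by less than 1.5 times or the spread between lines. Depth limits what a missing peak shows, since a list holds no pileup under 3 or 5 reads.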
